A study of Mus musculus with 17 samples.

Results

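The genes described here are 36 markers of brain regions, followed through RNA from the newborn mouse forebrain. They are the rows of the deposited gene table whose Ensembl identifier carries a listed symbol in the GENCODE annotation of the mouse, and all 36 were found among its 55359 rows. By the region that each gene is used to mark, 10 stand for hippocampus and pallium (*Emx1*, *Emx2*, *Lhx2*, *Neurod2*, *Neurod6*, *Prox1*, *Zbtb20*, *Lef1*, *Wfs1* and *Man1a*) and 9 for striatum (*Meis2*, *Drd1*, *Drd2*, *Ppp1r1b*, *Penk*, *Tac1*, *Adora2a*, *Isl1* and *Ebf1*). Of the rest, 3 stand for thalamus (*Tcf7l2*, *Lhx9* and *Gbx2*), 2 for habenula (*Gpr151* and *Pou4f1*), 6 for hypothalamus (*Sim1*, *Otp*, *Pomc*, *Avp*, *Oxt* and *Hcrt*) and 6 for midbrain and hindbrain (*En1*, *En2*, *Pax2*, *Hoxb2*, *Hoxb3* and *Hoxb4*). Membership was decided by symbol and not by a threshold on measured values.

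The brain libraries came from male mice at postnatal day 1, all of a line deficient for osteocalcin (*Ocn*), a hormone secreted by bone. Its null allele, *Ocn*GK, is a product of gene targeting, and the mice were 129/SvEv. WT pups were born from WT mothers (3 libraries, labelled WT), whereas *Ocn*+/- pups (3 libraries, labelled Het) and *Ocn*-/- pups (3 libraries, labelled KO) were born from *Ocn*-/- mothers. Another 8 libraries came from testes of such pups and serve here for levels only. Because no WT pup had an *Ocn*-/- mother, the genotype of the pup, that of its mother and the litter cannot be told apart in a comparison with WT, while *Ocn*+/- and *Ocn*-/- pups share the maternal genotype. The labels name the tissue Hippocampus, and the study describes it as forebrain including the hippocampus. The study set the brain beside the testis, an organ with another osteocalcin receptor, to compare how their transcripts respond to loss of the hormone.

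Regions of the vertebrate brain are laid down by transcription factors that neurons of a region often keep, so that their transcripts mark where a sample came from. Emx and Neurod factors mark the pallium, from which cortex and hippocampus arise, and the striatum next to it is known by the dopamine and adenosine receptors and the peptide precursors of its projection neurons. Deeper structures are marked by other factors and by hormones, and the engrailed and Hox genes mark midbrain and hindbrain, behind the forebrain.

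Total counts per forebrain library lay from 6518151 up to 14621584, and group medians were 8778595 for WT, 14398834 for *Ocn*+/- and 13047068 for *Ocn*-/- mice. Levels are given as CPM, that is counts relative to the library size corrected by TMM, where 3 counts, the most that a count of 0 allows, stand for 0.201 to 0.534 CPM depending on the library. The third WT library, WT 3, was the shallowest and stood apart, since its log2 CPM correlated with the other libraries at 0.962 to 0.976 and theirs with each other at 0.974 to 0.986. Values without it are therefore given beside the calls against WT. The targeted genes could not check the labels at this depth, because *Bglap* had 0 to 5 counts, *Bglap2* had 0 counts in all 9 libraries and *Bglap3* had 0 to 3 counts. Nothing states that the libraries of a genotype came from separate litters, so p-values measure the spread between these samples only.

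Of the 36 markers, 24 had a count in every forebrain library and 5 had 3 counts or fewer in each. Levels of different genes were set side by side as CPM per kilobase of merged exon length, averaged over the 9 libraries. On this scale the order began with *Neurod6* at 172, *Neurod2* at 58.4, *Meis2* at 22.9, *Ppp1r1b* at 17.3 and *Lhx2* at 15.9. All 19 markers of pallium and striatum lay between 0.670 and 172, whereas the 3 thalamic markers lay between 0.638 and 1.3, the hypothalamic ones between 0.0912 and 3.13 and those of midbrain and hindbrain between 0 and 0.0242. The libraries labelled Hippocampus thus held striatal RNA as well as pallial RNA, low levels of thalamic, habenular and hypothalamic markers and next to none of the hindbrain markers.

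**Figure D1:**
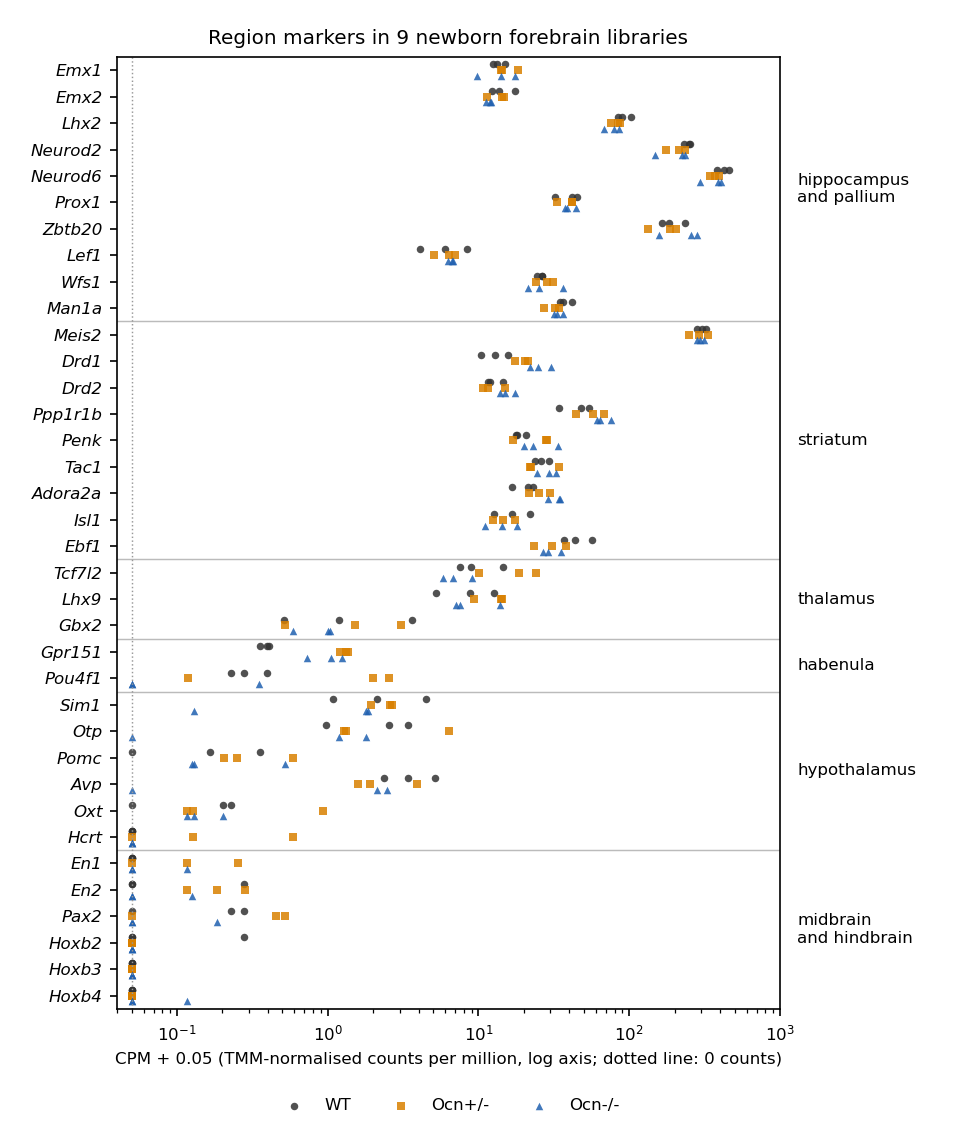
Level of each of the 36 region markers in the 9 forebrain libraries, as CPM plus 0.05 on a log axis, with 1 row per gene and 1 symbol per library (circles WT, squares Ocn+/-, triangles Ocn-/-). The symbols of pallial and striatal genes lie close together, those of thalamic, habenular and hypothalamic genes spread wider, and most of those for midbrain and hindbrain lie at or near the dotted line that marks 0 counts.

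The pallial markers were the most abundant and the steadiest group. Their summed level ran from 936 to 1194 CPM per library, and the median of their coefficients of variation over the 9 libraries was 15.8%. *Neurod6* (chromosome 6, 55654807 to 55658326 in GRCm39), a transcription factor of differentiating excitatory neurons, had the highest mean level of the group. Its level was 382, 426 and 456 CPM in the WT libraries, 344, 391 and 369 CPM in the *Ocn*+/- libraries and 407, 293 and 386 CPM in the *Ocn*-/- libraries. The genotypes overlapped, and the lowest value was that of *Ocn*-/- 2.

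*Neurod2*, a relative of *Neurod6* with the same expression in young excitatory neurons, ran from 147 to 254 CPM. *Lhx2*, which is needed for cortical identity, ran from 68.5 to 103 CPM, and *Emx1* and *Emx2*, homeobox genes of the dorsal telencephalon, ran from 9.71 to 18.4 and from 11.2 to 17.4 CPM. Markers of parts of the hippocampus were present in every library. *Prox1*, a factor of dentate granule cells, ran from 31.9 to 44.7 CPM, and *Zbtb20*, a repressor needed for the hippocampal pyramidal fields, from 133 to 282 CPM. *Lef1*, a Wnt-dependent factor required for hippocampal growth, was the weakest of the group at 4.04 to 8.36 CPM. *Wfs1*, an endoplasmic reticulum protein used as a marker of pyramidal neurons, ran from 21.2 to 36.1 CPM, and *Man1a*, a Golgi mannosidase, from 27 to 41.8 CPM. Of the 50-base stretches of the longest *Wfs1* transcript, 55.9% also lie on the opposite strand in *Ppp2r2c*, 38.1% of those of *Lef1* lie in *Lef1os1* and 22.3% of those of *Neurod6* in *Gm3279*, and since the strandedness of the libraries is not given in the sources used here, counts of such pairs may be shared.

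The striatal markers were present in every library, with a summed level of 423 to 582 CPM, and the median of their coefficients of variation was 22.8%. *Meis2* (chromosome 2, 115693062 to 115896341), a homeobox gene of striatal progenitors and neurons, was the highest of them. It was at 282, 304 and 322 CPM in WT, 250, 331 and 292 CPM in *Ocn*+/- and 283, 311 and 297 CPM in *Ocn*-/- libraries. These levels overlapped fully, and with a coefficient of variation of 8.17% *Meis2* was the steadiest of the 26 markers that could be tested.

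Among the striatal genes, the coefficient of variation was highest for *Drd1*, at 31.3%. *Drd1* (chromosome 13, 54204872 to 54209760, minus strand) encodes the dopamine receptor of the direct-pathway projection neurons. RefSeq gives it 2 start sites, and the promoters are shown because *Drd1* had the smallest p of the 26 tested markers in the comparison of *Ocn*-/- with WT. Each runs from 250 bases before to 50 after the start on the minus strand of GRCm38.p6, an older build than the one of the counts, the first at chr13:54055609-54055908 and the second at chr13:54054731-54055030, with capitals marking the GC box GGGCGG.
*Drd1* promoter at the first start: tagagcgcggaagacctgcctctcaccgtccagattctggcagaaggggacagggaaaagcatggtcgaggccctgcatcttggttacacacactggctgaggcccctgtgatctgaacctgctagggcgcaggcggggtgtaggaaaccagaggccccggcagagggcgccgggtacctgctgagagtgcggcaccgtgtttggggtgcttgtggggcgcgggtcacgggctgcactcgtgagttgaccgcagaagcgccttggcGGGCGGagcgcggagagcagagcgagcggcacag
*Drd1* promoter at the second start: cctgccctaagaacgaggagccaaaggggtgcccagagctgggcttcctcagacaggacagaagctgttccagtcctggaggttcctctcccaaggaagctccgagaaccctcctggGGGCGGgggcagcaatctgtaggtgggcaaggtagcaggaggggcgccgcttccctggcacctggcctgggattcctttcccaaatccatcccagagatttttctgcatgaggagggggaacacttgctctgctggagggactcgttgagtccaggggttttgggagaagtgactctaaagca
Searched on both strands, each held 1 match to GGGCGG, which 35.7% of the 32851 RefSeq promoters of this length hold, and 0 matches to the TATA box TATAAA, held by 13.6%. Neither held the cAMP response element TGACGTCA, held by 1.79% of promoters, or the shorter motif TGACG contained in it, held by 20.8%. Bases G and C made up 65.7% of the first and 59.3% of the second, against a median of 52.7% over all promoters. For *Adora2a* the same table had no entry.

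The counts of *Drd1* were fitted together with those of all other genes, of which 16076 had enough counts for the test by edgeR's own rule, 26 of the markers among them. With edgeR's quasi-likelihood test and p adjusted over all these genes, 780 genes (4.85%) differed between *Ocn*-/- and WT forebrains at an adjusted p under 0.05, 290 of them (1.8%) higher and 490 (3.05%) lower. Of the 26 tested markers, 2 (7.69%) were higher and 0 lower, and these were *Drd1* and *Adora2a*. As these are bulk samples, a change in the number of cells of a type and one in the RNA per cell cannot be told apart.

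*Drd1* was at 15.7, 12.9 and 10.3 CPM in the WT libraries, 21.2, 20.4 and 17.5 CPM in the *Ocn*+/- libraries and 30.1, 22.0 and 24.8 CPM in the *Ocn*-/- libraries. The 3 genotypes did not overlap, with WT lowest and *Ocn*-/- highest, and WT 3 had the lowest value of all. In group means this was 13 ± 2.7 CPM for WT, 19.7 ± 1.94 CPM for *Ocn*+/- and 25.7 ± 4.10 CPM for *Ocn*-/- mice (SD, n = 3 each). The log2 fold change in edgeR was 0.95 (SE 0.16, adjusted p = 0.00243) for *Ocn*-/- against WT, or 1.93-fold. It lay between 0.82 and 1.13 over the 17 alternative fits, with adjusted p between 6.12e-08 and 0.0195, and without WT 3 it was 0.83 with an adjusted p of 0.0195. For *Ocn*+/- against WT it was 0.57 (SE 0.16), and its adjusted p in edgeR of 0.0522 missed the threshold. Over the alternatives this value lay between 0.46 and 0.75, with adjusted p between 0.00684 and 0.206, and 9 of 17 called it. Without WT 3 it was 0.46, with the adjusted p of 0.206.

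*Adora2a* (chromosome 10, 75152560 to 75170628) encodes the adenosine receptor of the indirect-pathway projection neurons. It was at 22.8, 21.3 and 16.7 CPM in WT, 21.4, 29.7 and 25.3 CPM in *Ocn*+/- and 28.8, 34.8 and 34.0 CPM in *Ocn*-/- libraries. All *Ocn*-/- libraries lay above all WT libraries, and *Ocn*+/- overlapped with both. The log2 fold change in edgeR for *Ocn*-/- against WT was 0.66 (SE 0.14, adjusted p = 0.0126), or 1.58-fold. This call was lost without WT 3 (0.56, adjusted p = 0.0704) and without *Ocn*-/- 2 (0.61, adjusted p = 0.0586), and over all 17 alternatives adjusted p in edgeR or DESeq2 lay between 6.35e-05 and 0.0704. For *Ocn*+/- against WT the log2 fold change of *Adora2a* was 0.31 (SE 0.14), with an adjusted p of 0.238 in edgeR.

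The other striatal markers did not pass the test in any comparison. *Ppp1r1b*, which encodes a phosphatase inhibitor found in both kinds of projection neurons, was at 47.7, 54.3 and 34.3 CPM in WT, 44.2, 68.3 and 57.8 CPM in *Ocn*+/- and 61.5, 63.8 and 76.0 CPM in *Ocn*-/- libraries. Here too the *Ocn*-/- libraries lay above WT, with a log2 difference of 0.55 (SE 0.18) and an adjusted p in edgeR of 0.096, and without WT 3, the lowest library, these were 0.40 and 0.241. *Penk*, the enkephalin precursor of indirect-pathway neurons, was at 18.7 ± 1.5 CPM for WT, 24.4 ± 6.45 CPM for *Ocn*+/- and 25.6 ± 7.17 CPM for *Ocn*-/- mice (SD, n = 3 each). *Drd2*, the dopamine receptor of the same neurons, was at 12.7 ± 1.66, 12.4 ± 2.22 and 15.4 ± 1.87 CPM in this order of genotypes. *Tac1*, the substance P precursor of direct-pathway neurons, was at 26.3 ± 2.98, 26 ± 7.04 and 28.8 ± 4.02 CPM, and *Isl1*, a factor needed for these neurons to form, at 17.1 ± 4.77, 14.8 ± 2.44 and 14.5 ± 3.52 CPM. For these 4 genes the mutant libraries overlapped with those of WT.

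*Ebf1*, a transcription factor in the differentiation of direct-pathway neurons, did not pass the test in edgeR either. It was at 37.1, 43.3 and 56.6 CPM in WT, 23.5, 37.9 and 30.7 CPM in *Ocn*+/- and 28.8, 26.7 and 35.1 CPM in *Ocn*-/- libraries. All *Ocn*-/- libraries lay below all WT libraries, *Ocn*+/- 2 lay above WT 1, so that *Ocn*+/- overlapped with WT, and WT 3 was the highest. The log2 difference was -0.58 (SE 0.18) for *Ocn*-/- against WT, with adjusted p of 0.0853 in edgeR and 0.0269 in DESeq2, and -0.56 (SE 0.18) for *Ocn*+/- against WT, with adjusted p of 0.103 and 0.0406. Without WT 3 the differences were -0.41 and -0.39, with adjusted p of 0.289 and 0.332 in edgeR.

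Over the 9 striatal markers the median log2 difference between *Ocn*-/- and WT was 0.30, with 6 differences above 0 and 3 below, and the median over all genes tested was 0.01. For *Ocn*+/- against WT the median was -0.02, with 4 above 0 and 5 below. Both comparisons use the same WT libraries.

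**Figure D2:**
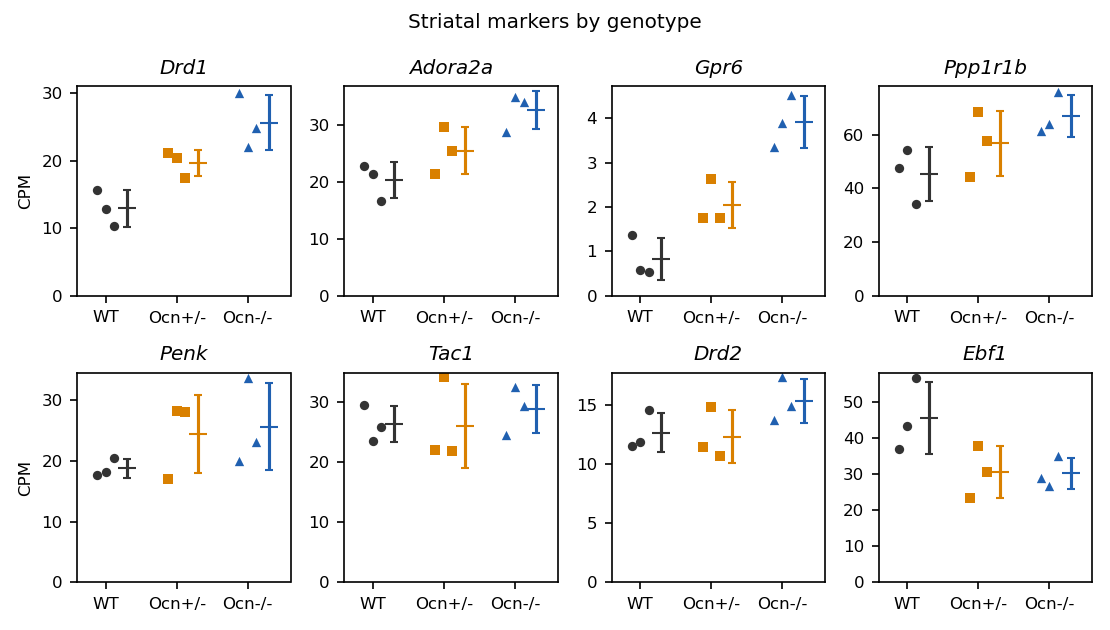
CPM of 8 striatal markers in each forebrain library by genotype, on linear axes from 0, with the mean and SD of the 3 libraries as the bar beside the symbols. Drd1 and Adora2a were higher in Ocn-/- than in WT libraries by the test, Ppp1r1b, Penk, Tac1, Drd2 and Ebf1 did not pass it, and Gpr6, a striatal marker from outside the 36 with 3 to 18 counts in WT, entered the test through the mutant libraries.

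A second list of 78 regional markers was read beside the 36, and 46 of these passed the filter. Between *Ocn*-/- and WT forebrains 2 of these 46 were higher and 1 lower, against 1.8% higher and 3.05% lower among all genes. *Gpr6*, a receptor of indirect-pathway neurons, was at 1.37, 0.576 and 0.534 CPM in WT, 1.76, 2.63 and 1.75 CPM in *Ocn*+/- and 3.35, 3.88 and 4.52 CPM in *Ocn*-/- libraries. The genotypes did not overlap in the order WT, *Ocn*+/-, *Ocn*-/-. It had 18, 5 and 3 counts in WT and passed the filter through the mutant libraries, where it was high, so that the filter favoured a difference. The log2 fold change in edgeR for *Ocn*-/- against WT was 2.10 (SE 0.38, adjusted p = 0.00389), and between 1.87 and 2.79 over 16 alternatives, with adjusted p from 1.14e-05 to 0.0286, the latter without WT 3, where it was 1.93, but with at least 10 counts required in every library it could not be tested. For *Ocn*+/- against WT its log2 difference was 1.16 (SE 0.39), with an adjusted p of 0.0994 in edgeR.

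Of the 15 listed markers of striatum and subpallium outside the 36, the *Ocn*-/- libraries lay above all WT libraries for 4 and below them for 1, against 12.9% above and 13.9% below among all genes. *Gpr6* is 1 of these 4, and since it passed the filter through the mutant libraries, its place among them was favoured. The median log2 difference of these 15 was -0.08, on the other side of 0 from that of the 9.

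No pallial marker among the 36 was called in any comparison. The median log2 difference of the 10 was -0.12 for *Ocn*+/- and -0.06 for *Ocn*-/- against WT, with 7 and 5 of 10 below 0. *Man1a* alone had all *Ocn*+/- libraries below WT, and *Emx2* alone had all *Ocn*-/- libraries below WT, as did 13.9% of all genes in either comparison.

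**Figure D3:**
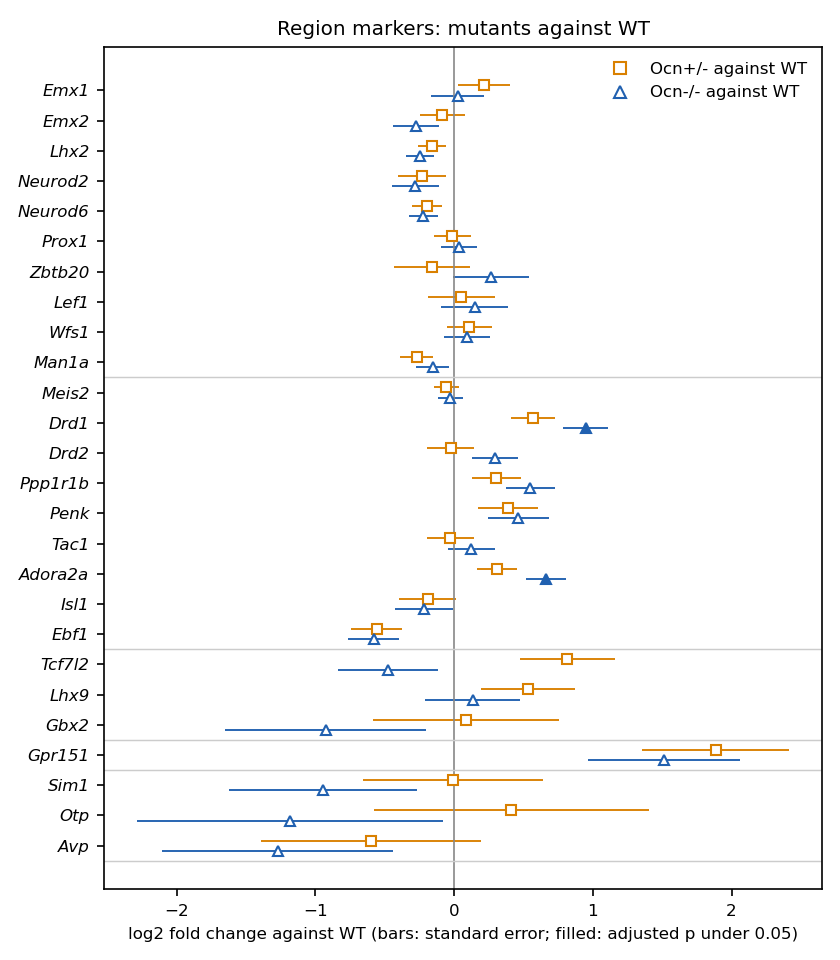
Log2 fold change against WT of the 26 tested region markers in Ocn+/- (squares) and Ocn-/- (triangles) forebrains, with the standard error as bars and filled symbols for an adjusted p under 0.05. Only Drd1 and Adora2a in Ocn-/- mice are filled, and the bars widen from the pallial genes at the top to the hypothalamic genes at the bottom.

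In the comparison of *Ocn*+/- with WT forebrains 625 of 16076 genes (3.89%) were called in edgeR, 194 (1.21%) higher and 431 (2.68%) lower, and 0 of the 26 tested markers. At an unadjusted p under 0.05 there were 6 (*Man1a*, *Drd1*, *Adora2a*, *Ebf1*, *Tcf7l2* and *Gpr151*), or 23.1% of the markers against 20.3% of all genes, and DESeq2 called 2, *Drd1* and *Ebf1*. *Gpr151* is among the 6 in each comparison with WT and passed the filter through the mutant libraries. For *Ocn*-/- against WT 6 markers also had an unadjusted p under 0.05 (*Lhx2*, *Drd1*, *Ppp1r1b*, *Adora2a*, *Ebf1* and *Gpr151*), against 21.7% of all genes, and DESeq2 called 4, adding *Ppp1r1b* and *Ebf1* to *Drd1* and *Adora2a*. The median log2 difference of the 26 was -0.01 for *Ocn*+/- and 0.00 for *Ocn*-/- against WT, and that of all genes 0.01 in both. With library size alone in place of TMM, the median of all genes moved to 0.09 and 0.11, and the share of higher genes among the calls rose from 31.0% to 47.7% for *Ocn*+/- and from 37.2% to 64.5% for *Ocn*-/- mice. *Drd1* and *Adora2a* remained called in *Ocn*-/- mice under this scaling, at 1.04 and 0.76 on the log2 scale.

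Between *Ocn*-/- and *Ocn*+/- forebrains, whose mothers had the same genotype, edgeR called 1 gene (0.00622%), and 0 of the 26 markers. At an unadjusted p under 0.05 there were 3 (*Drd1*, *Adora2a* and *Tcf7l2*), or 11.5% of the markers against 3.2% of all genes, and DESeq2 called 0. The log2 difference of *Drd1* was 0.38 (SE 0.15) and that of *Adora2a* 0.35 (SE 0.14), both with an adjusted p of 0.999 in edgeR, and *Tcf7l2* was lower in *Ocn*-/- libraries by a log2 difference of -1.29 (SE 0.34) with the same adjusted p. The *Ocn*-/- libraries lay wholly above the *Ocn*+/- libraries for 1 of the 26 (*Drd1*, 3.85%), against 3.65% of all genes, and wholly below for 2 (*Tcf7l2* and *Sim1*, 7.69%), against 4.12%.

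No thalamic marker among the 36 was called in edgeR. *Tcf7l2* (chromosome 19, 55730188 to 55922091), a Wnt-pathway transcription factor of thalamic and habenular neurons, was the highest of them. It was at 8.85, 7.49 and 14.59 CPM in WT, 10.1, 18.5 and 24.2 CPM in *Ocn*+/- and 5.75, 8.98 and 6.70 CPM in *Ocn*-/- libraries. The highest values were those of *Ocn*+/- 2 and *Ocn*+/- 3, and WT overlapped with both mutants, while all *Ocn*-/- libraries lay below all *Ocn*+/- libraries. Its log2 difference for *Ocn*+/- against WT was 0.81 (SE 0.34, adjusted p = 0.217 in edgeR), and without *Ocn*+/- 1 it was 1.10 with an adjusted p of 0.0309, the range over all alternatives being 0.000992 to 0.43.

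*Lhx9* and *Gbx2*, homeobox genes of the developing thalamus, ran from 5.18 to 14.2 CPM and from 0.461 to 3.56 CPM. *Gbx2* was highest in WT 3 and *Ocn*+/- 3, the library in which *Tcf7l2* was also highest, and its highest level was 7.72 times its lowest. The antisense gene *D130058E05Rik* shares 43.6% of the 50-base stretches of *Gbx2*. Of the 7 listed thalamic markers outside the 36, *Calb2*, a calcium-binding protein also made by olfactory bulb interneurons, was called. It rose from 18.3 ± 0.904 CPM in WT to 39.4 ± 7.14 CPM in *Ocn*+/- mice (SD, n = 3 each), a log2 fold change of 1.10 in edgeR (SE 0.20, adjusted p = 0.0101). Its adjusted p was 0.0797 without WT 3 and 0.0511 without WT 2, and over the alternatives it ran from 1.06e-13 to 0.0797.

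Markers of the olfactory bulb also varied between the libraries. The summed level of the 3 listed ones, *Tbx21*, *Cdhr1* and *Doc2g*, was 10.1 to 19.0 CPM in WT, 76.6 to 100.3 CPM in *Ocn*+/- and 11.9 to 60.9 CPM in *Ocn*-/- libraries. In every library but WT 3 most of it was *Cdhr1*, a cadherin of mitral and tufted cells, with a log2 difference of 3.05 (SE 0.73, adjusted p = 0.0829 in edgeR) for *Ocn*+/- against WT, and all *Ocn*+/- libraries lay above WT although it did not pass the test. *Tbx21*, with 1 to 7 counts in WT and 18 to 44 in *Ocn*+/- libraries, passed the filter through the latter and was not called either (adjusted p = 0.0757 in edgeR). *Doc2g* had a log2 difference of -0.11 (SE 0.23, adjusted p = 0.837 in edgeR), and its genotypes overlapped. Within the *Ocn*-/- genotype, the sum was 11.9 CPM in *Ocn*-/- 1 and 57.2 and 60.9 CPM in the other libraries. *Calb2* was at 16.9 CPM in *Ocn*-/- 1 and at 30.5 and 30.2 CPM in *Ocn*-/- 2 and *Ocn*-/- 3. The part of the olfactory bulb in the call for *Calb2* was not tested.

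Habenular markers were rare. *Gpr151* (chromosome 18, 42710946 to 42712717), an orphan receptor of habenular neurons, had 4, 3 and 2 counts in the WT libraries, 17, 17 and 19 in the *Ocn*+/- libraries and 15, 15 and 9 in the *Ocn*-/- libraries. In CPM this was 0.305 to 0.356 in WT, 1.15 to 1.32 in *Ocn*+/- and 0.677 to 1.20 in *Ocn*-/- libraries, so that neither mutant overlapped with WT. It passed the filter through the mutant libraries. Its log2 difference in edgeR was 1.89 (SE 0.53, adjusted p = 0.0514) for *Ocn*+/- and 1.51 (SE 0.55, adjusted p = 0.109) for *Ocn*-/- against WT. Over the 15 and 14 alternatives that gave an adjusted p, it lay between 0.0471 and 0.154 and between 0.0987 and 0.259. DESeq2 gave none, and with at least 10 counts required in every library *Gpr151* could not be tested. Without WT 3 the differences were 1.92 and 1.55, with adjusted p of 0.148 and 0.239.

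*Pou4f1*, a transcription factor of the medial habenula, did not pass the filter. It had 3, 3 and 1 counts in WT, 1, 32 and 29 counts in *Ocn*+/- and 0, 0 and 4 counts in *Ocn*-/- libraries. The high values were those of *Ocn*+/- 2 and *Ocn*+/- 3, where *Tcf7l2* was also highest, and *Ocn*+/- 1 was no higher than WT. So *Pou4f1* and *Gpr151* did not follow each other, since *Gpr151* was as high in *Ocn*+/- 1, with 17 counts, as in the other *Ocn*+/- libraries. Of the tested markers, 2 lay wholly above WT for *Ocn*+/- (*Drd1* and *Gpr151*) and 4 for *Ocn*-/- mice (these and *Ppp1r1b* and *Adora2a*), or 7.69% and 15.4%, against 12.9% of all genes in both comparisons. Since *Gpr151* passed the filter through the mutants, its place among them was favoured, and without it they numbered 1 and 3. Those wholly below WT numbered 1 (*Man1a*) and 2 (*Emx2* and *Ebf1*), against 13.9%.

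**Figure D4:**
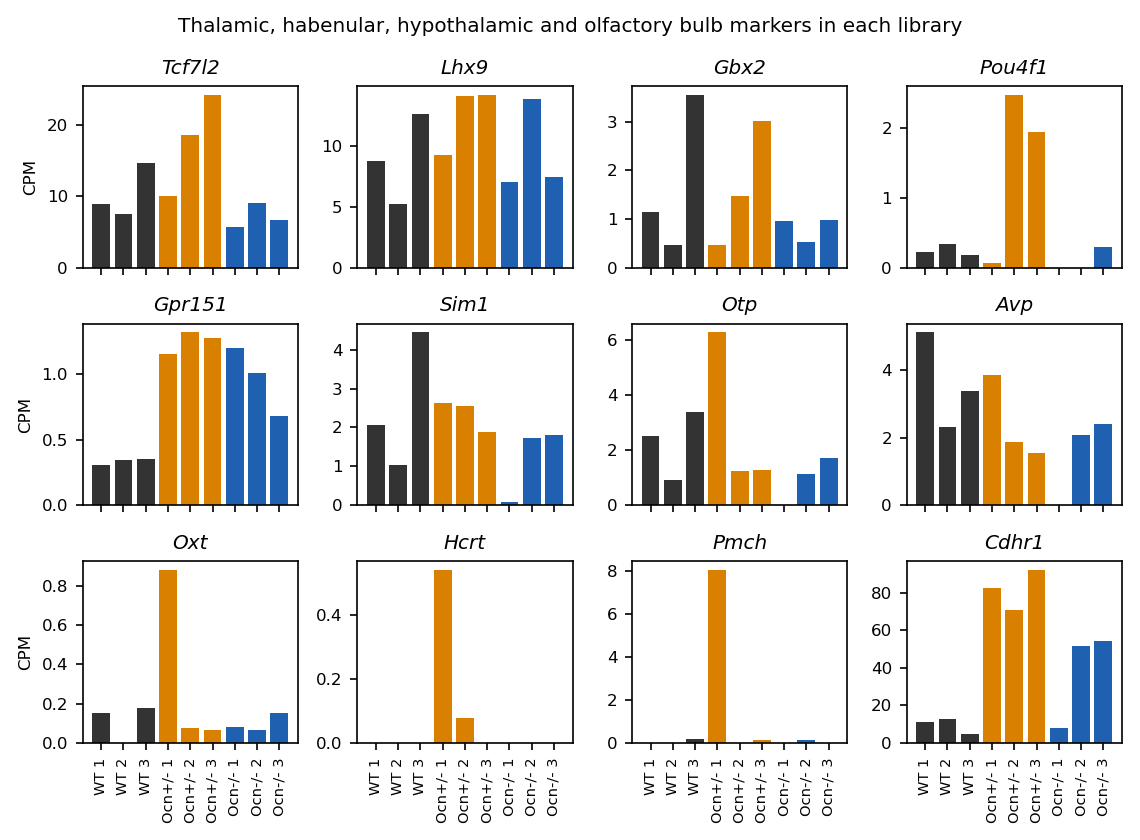
CPM in each of the 9 forebrain libraries (bars, axes from 0) for 3 thalamic, 2 habenular and 5 hypothalamic markers, for Pmch, another hypothalamic gene, and for Cdhr1 of the olfactory bulb. Pou4f1 is high in Ocn+/- 2 and 3, Otp, Oxt, Hcrt and Pmch are highest in Ocn+/- 1, and Sim1, Otp and Avp are at or near 0 in Ocn-/- 1.

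Hypothalamic markers could be present or missing within a genotype. Their summed level was 0.240 CPM in *Ocn*-/- 1, 14.7 CPM in *Ocn*+/- 1 and between 4.38 and 11.4 CPM in the other 7 libraries. *Avp* (chromosome 2, 130422540 to 130424640), the vasopressin precursor, had the highest mean. It had 67, 20 and 19 counts in WT, 57, 24 and 23 in *Ocn*+/- and 0, 31 and 32 in *Ocn*-/- libraries. Only *Ocn*-/- 1 lacked it, and a count of 0 there allows up to 3 counts, or 0.240 CPM.

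*Sim1* and *Otp*, transcription factors of the neurosecretory neurons that make vasopressin and oxytocin, were missing from the same library. *Sim1* had 1 count in *Ocn*-/- 1 and 9 to 39 counts in the other 8 libraries, and *Otp* had 0 counts there and 8 to 93 elsewhere. *Fezf1*, a hypothalamic factor outside the 36, had 0 counts in *Ocn*-/- 1 and 23 to 97 in the others. Not all hypothalamic genes were missing there, since *Nkx2-2* had 28 counts in *Ocn*-/- 1 and 5 to 48 over all libraries, *Trh*, the thyrotropin-releasing hormone precursor, had 10 counts against 9 in the lowest library, and *Gal* and *Crh*, which encode galanin and corticotropin-releasing hormone, had 7 and 5. The 15 listed hypothalamic genes outside the 36 summed to 9.74 CPM in *Ocn*-/- 1 and to 15.7 to 38.8 CPM in the other 8 libraries. The library was not shallow, with 12087907 counts in all, and its pallial and striatal markers summed to 1089 and 504 CPM. *Nkx2-1*, which marks both the hypothalamus and the ventral telencephalon, was at 5.27 CPM in it and at 5.44 to 13.7 CPM in the rest. With this library included, the log2 differences of *Sim1*, *Otp* and *Avp* for *Ocn*-/- against WT had standard errors of 0.68, 1.10 and 0.83, and adjusted p of 0.452, 0.591 and 0.424 in edgeR.

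*Ocn*+/- 1 lay at the other end in the summed level, though not for every gene. *Sim1*, *Fezf1* and *Nkx2-1* were highest in WT 3, at 4.45, 7.65 and 13.7 CPM, against 2.64, 6.56 and 9.74 CPM in *Ocn*+/- 1. *Avp* was highest in WT 1. *Ocn*+/- 1 was also a deep library, with 14398834 counts in all. *Hcrt*, the orexin precursor of the lateral hypothalamus, had 8 counts in *Ocn*+/- 1, 1 in *Ocn*+/- 2 and 0 in the other 7. *Oxt*, the oxytocin precursor, had 13 counts in it and 0 to 2 elsewhere, and *Otp* had 93. *Pmch*, which encodes the melanin-concentrating hormone precursor of the lateral hypothalamus, had 119 counts in *Ocn*+/- 1 and 0 to 2 in the others, and *Nr5a1*, a factor of the ventromedial nucleus, 26 against 0 to 3. The opposite-strand gene *Parpbp* holds 86.3% of the 50-base stretches of *Pmch*. *Pomc*, the precursor of melanocortins in the arcuate nucleus and of pituitary hormones, had at most 8 counts, also in *Ocn*+/- 1. Of the 5 listed pituitary genes, *Gh* and *Prl* had 0 counts in all 9 libraries, *Cga* and *Pou1f1* had 1 count in *Ocn*+/- 1 alone, and *Tshb* had 1 to 11 counts per library.

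*Oxt* and *Avp* are neighbours on chromosome 2 that lie on opposite strands, and they share part of their sequence. The 9 codons of the hormones themselves, taken from the GENCODE transcripts, are shown because they set the hormones apart, with capitals for the 5 bases that differ.
*Oxt* hormone codons: tgctacAtccagaactgcccCCTGggc
*Avp* hormone codons: tgctacTtccagaactgcccAAGAggc
Of the 50-base stretches of the longest transcript, 15.9% of those of *Oxt* occur in *Avp* and 10.6% of those of *Avp* in *Oxt*. The 0 to 2 counts of *Oxt* beside 19 to 67 of *Avp* in WT libraries may therefore include shared reads, and the 13 counts of *Oxt* in *Ocn*+/- 1 stood beside 57 of *Avp*, fewer than the 67 in WT 1, where *Oxt* had 2.

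The midbrain and hindbrain markers were close to absent. *Pax2* (chromosome 19, 44735057 to 44826703), a factor of the boundary between midbrain and hindbrain, had the highest mean of the 6. It had 0, 2 and 1 counts in WT, 6, 0 and 7 in *Ocn*+/- and 0, 2 and 0 in *Ocn*-/- libraries. *En1* and *En2*, the engrailed genes of the same territory, had at most 3 counts in any library. Of the neighbouring Hoxb genes on chromosome 11, which set hindbrain segments, *Hoxb2* had 2 counts in WT 2 alone, *Hoxb4* had 1 count in *Ocn*-/- 2 alone and *Hoxb3* had 0 in every library, which allows up to 3 counts in each. These rows can hold counts, since the 8 testes libraries had 2 to 32 counts of *Hoxb2*, 13 to 164 of *Hoxb3* and 17 to 50 of *Hoxb4*. Of the 12 listed hindbrain genes outside the 36, 8 had at most 3 counts in every forebrain library and 3 of those had 0 in all.

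**Figure D5:**
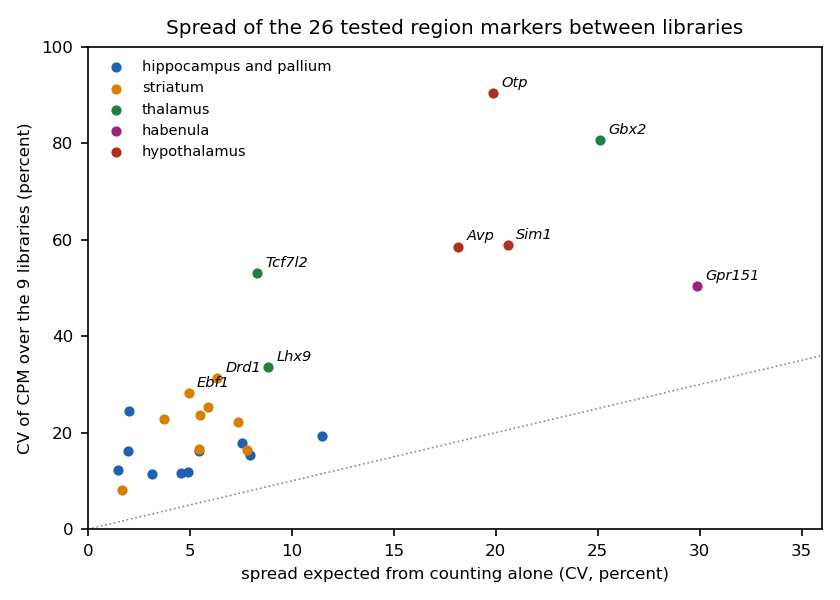
Coefficient of variation of CPM over the 9 forebrain libraries for each of the 26 tested markers, against that expected from counting alone at its mean count, both in percent, with colours for the region. Every point lies above the dotted line of equality, and thalamic, habenular and hypothalamic genes lie from 33.7% to 90.4%, against 8.17% to 31.3% for pallial and striatal genes.

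The spread of these genes over the libraries was compared with that expected from counting alone, which is large for genes with few counts. For *Otp* the coefficient of variation was 90.4% against 19.9% from counting, for *Gbx2* 80.7% against 25.1%, for *Tcf7l2* 53.1% against 8.30% and for *Avp* 58.6% against 18.2%. For *Gpr151* it was 50.4% against 29.9%. Medians by region were 15.8% for pallium, 22.8% for striatum, 53.1% for thalamus and 59.0% for hypothalamus. These coefficients cover differences between genotypes as well as those within them.

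Other tissues next to the forebrain moved between libraries too. The 5 listed markers of the choroid plexus summed to 568 to 739 CPM in WT, 573 to 861 CPM in *Ocn*+/- and 323 to 531 CPM in *Ocn*-/- libraries, so that *Ocn*-/- lay below WT. Most of each sum was *Ttr*, which was not called for *Ocn*-/- against WT (log2 difference -0.52, adjusted p = 0.258 in edgeR). *Folr1*, *Kl* and *Kcne2* overlapped between *Ocn*-/- and WT libraries, and the log2 difference of *Kl* was above 0, at 0.23. Of the 5, *Aqp1*, a water channel, was called in *Ocn*-/- against WT, with a log2 fold change of -0.85 (SE 0.19, adjusted p = 0.0136 in edgeR), a call that was lost without WT 1, WT 3 or *Ocn*-/- 1 (adjusted p of 0.0584, 0.0541 and 0.0581). Markers of erythroid cells summed to 522 to 719 CPM in WT, 356 to 407 CPM in *Ocn*+/- and 486 to 599 CPM in *Ocn*-/- libraries. The globin genes *Hba-a1*, *Hba-a2* and *Hbb-bs* were called in *Ocn*+/- against WT, at -0.84, -0.97 and -0.46 on the log2 scale with adjusted p of 0.00187, 0.0024 and 0.0301 in edgeR. Without WT 3, their highest library, adjusted p was 0.0123, 0.00759 and 0.133, and the call for *Hbb-bs* was lost in 6 of 17 alternatives. Those of meninges and fibroblasts overlapped between the genotypes, at 167 to 328 CPM in all. Markers of the forebrain itself were not level either, since the 13 listed genes of pallium and hippocampus outside the 36 summed to 1944 to 2387 CPM in WT, 1606 to 1919 CPM in *Ocn*+/- and 1552 to 1785 CPM in *Ocn*-/- libraries, and both mutants lay below WT, also with WT 3, the highest library, left out. This sum is weighted to the most abundant genes of the list and need not hold for each of them. Against WT, 5 of the 13 log2 differences were above 0 for *Ocn*+/- and 4 for *Ocn*-/- mice, with medians of -0.13 and -0.21. *Tbr1*, a factor of early cortical neurons, was at 223 ± 28.9 CPM in WT, 169 ± 20.8 CPM in *Ocn*+/- and 193 ± 22.1 CPM in *Ocn*-/- mice (SD, n = 3 each) and did not pass the test, and *Gad2*, a GABA-synthesising enzyme, overlapped between the genotypes at 97.6 to 138 CPM. The part of these differences, and of those in the olfactory bulb markers, in the results for *Drd1* and *Adora2a* was not tested.

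Several of the region markers were also abundant in the testes. *Lhx9*, which is needed for gonads to form, had 582 to 901 counts per testis library, *Ebf1* 463 to 839, *Zbtb20* 671 to 1421 and *Penk* 277 to 1262. *Neurod6* had 0 to 5 counts, *Neurod2* 0 to 3 and *Drd1* 0 to 12, while *Avp* and *Hcrt* had 0 in all 8. These levels were not tested between the tissues.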

How the data were processed

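Sequencing reads of 17 libraries (9 forebrain, 8 testes) were trimmed by the authors with Trim Galore 0.6.6, aligned to GRCm39 with STAR 2.7.8a and counted with RSEM 1.3.3, per the labels. The authors deposited RSEM expected counts per gene without normalization, in which a read that matches several genes is divided between them, so that 9625 of 55359 rows held a value that is not whole. The GENCODE release and the strandedness are not given in the sources used here. Of the identifiers, 54749 were found in GENCODE vM39, and the 610 others held at most 0.102% of a library. The genes and lists described here were chosen with earlier results of these data known.

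Expected counts were rounded. The 9 forebrain libraries were fitted together in edgeR 4.0.16 (R 4.3.3, limma 3.58.1) with TMM scaling, filterByExpr by genotype, robust quasi-likelihood and genotype as the only term. Two-sided p-values were adjusted over 16076 genes (Benjamini-Hochberg), with calls under 0.05. SE is the absolute log2 fold change divided by the square root of the F statistic. Means are over libraries with their SD. Values in every library were given for called markers and for the highest marker of each region, full statistics for called ones, and the other genes detailed were chosen after their values were seen. Some listed genes outside the 36 are counted in their lists but not reported here. The alternatives were upper quartile, library size alone and RLE scaling, DESeq2 1.42.0, a minimum of 10 counts in every library or no minimum, fits restricted to the genotypes under comparison, replicate number as a block, and each of the 9 libraries left out in turn.

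The fit was tested on simulated data with 200 changed genes in each comparison. Of 2-fold changes 74% were found for *Ocn*+/- against WT over 15842 genes and 72% for *Ocn*-/- against WT over 15850 genes, and of 4-fold changes 95% and 96%, with 8 and 12 false calls. Shared sequence was counted as the share of 50-base stretches of a gene's longest transcript that occur in transcripts of another gene. Promoters came from RefSeq (GRCm38.p6), where 29 of the 36 symbols had an entry.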

Additional observations from a re-analysis of the deposited data

How the results depend on the processing

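Each comparison had 17 alternatives, of which fewer gave a value for *Gpr151* and *Gpr6*. No log2 fold change that the text gives with its range changed direction, and 324 of 324 mean CPM values per marker, genotype and other scaling lay within 1 SD of the value given. Of the markers, 0 were called for *Ocn*+/- against WT, but 2 in DESeq2, 4 without a filter on low counts (*Drd1*, *Ebf1*, *Pou4f1* and *Tcf7l2*), 1 with at least 10 counts in every library and 2 in a fit of only the genotypes compared, and 0 to 2 when a library was left out, the 2 being *Pou4f1* and *Tcf7l2* without *Ocn*+/- 1. For *Ocn*-/- against WT the 2 calls became 4 in DESeq2, 5 without a filter, 4 in a fit of only the genotypes compared and 1 to 4 when a library was left out, *Drd1* being called in each. Between the mutants there were 0 calls, and 2 without a filter (*Pou4f1* and *Tcf7l2*).

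Among the other regional markers the 1 call for *Ocn*+/- against WT became 3 with library size alone, 5 in DESeq2, 9 without a filter, 3 with at least 10 counts, 5 with only the genotypes compared and 0 to 3 when a library was left out. For *Ocn*-/- against WT the 3 became 5 in DESeq2, 10 without a filter, 5 with only the genotypes compared and 1 to 6 when a library was left out, and between the mutants 0 became 3 without a filter. Over all genes the 625 calls for *Ocn*+/- became 369 with library size alone, 1265 without a filter and 183 to 830 when a library was left out, lowest without WT 3. The 780 for *Ocn*-/- became 1502 without a filter and 189 to 919, again lowest without WT 3. The 1 call between the mutants became 2 with library size alone, 4 in DESeq2, 34 without a filter, 0 with at least 10 counts, 0 with only the genotypes compared and 1 to 2 when a library was left out. The cause of these changes was not tested.

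The deviations of libraries with the same replicate number from their group means correlated at -0.037 to 0.146 over 9 pairs. Pairs with different numbers were not computed, so whether the numbers pair the samples cannot be told from these values. With the replicate number as a block there were 2, 3 and 0 calls among the markers in the 3 comparisons, 4, 7 and 0 among the other regional markers, and 768, 1140 and 1 over all genes.

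Depth limits what can be said of markers with few counts: 10 of the 36 could not be tested, and a marker at 0 in WT 3 could still have been at 0.534 CPM.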

Other observations

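Several regional genes outside the 36 markers were also highest in *Ocn*+/- 1, the library with the highest summed level of hypothalamic markers. *Barhl1*, a homeobox gene of the mammillary region and other places, had 35 counts in *Ocn*+/- 1 and 0 to 6 in the other 8 libraries, *Lmx1b*, a factor of dopaminergic and serotonergic neurons, 23 against 0 to 3, *Nkx2-4* 21 against 0 to 2, and *Foxa1*, a floor plate factor, 12 against 0 to 3. The summed level of the 11 listed midbrain genes was 15.7 CPM in *Ocn*+/- 1 and 6.55 to 13.1 CPM in the others. *Th*, which encodes tyrosine hydroxylase and is also made by olfactory bulb neurons, was at 5.68, 4.34 and 6.38 CPM in *Ocn*+/- libraries and at 1.61 to 3.20 CPM in WT, with a log2 difference of 1.37 (SE 0.38, adjusted p = 0.0556 in edgeR), and within *Ocn*-/- mice it was at 1.04 CPM in *Ocn*-/- 1 and at 3.62 and 3.46 CPM in the others. These genes were picked after their values were seen.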
